A study of Mus musculus with 4 samples.

Results

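Among 1916 cells retained from 4 Drop-seq libraries of mouse renal cortex, 102 (5.32%) were intercalated-like. They were chosen from the counts themselves. A retained cell was a member when the unique molecular identifiers (UMIs, one per captured mRNA molecule) of Atp6v1g3, Atp6v0d2 and Slc26a4 summed to at least 2 and exceeded the sums of Umod plus Slc12a1, of Slc12a3 plus Trpm6 and of S100g plus Klk1 in the same cell. These 6 excluded genes mark the thick ascending limb, the distal convoluted tubule and the connecting tubule. Of the libraries, 2 were of Akita mice (C57BL/6-Ins2Akita/J), a diabetic strain with a mutation in the insulin gene Ins2, and 2 were of wild-type mice. Each library was made from the cortex of 1 kidney after collagenase digestion. The labels give ages of 116 and 119 days for the Akita mice and 45 and 51 days for the wild-type mice, so genotype and age cannot be told apart in any comparison below. The same labels describe housing for 24 weeks and 8 mice per group, which does not match those ages.

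Intercalated cells are the acid-base cells of the connecting tubule and collecting duct. They carry a vacuolar proton pump (V-ATPase), a rotary enzyme whose V1 sector splits ATP in the cytosol and whose V0 sector conducts protons across the membrane, and cytosolic carbonic anhydrase supplies the protons and bicarbonate. Type A cells place the pump at the apical membrane and return bicarbonate to blood through the anion exchanger Slc4a1 (AE1). Type B cells place the pump at the basolateral side and secrete bicarbonate through pendrin (Slc26a4). The forkhead factor Foxi1 is required for both types and for the intercalated forms of the pump subunits.

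The files held between 1016719 and 1303453 UMIs per library, of which 557780 to 812747 lay in retained cells. The members held 116280 UMIs in all. Akita replicate 1 contributed 14737, Akita replicate 2 contributed 32883, and the wild-type libraries contributed 24067 (replicate 1) and 44593 (replicate 2). Their median depth was 787 UMIs per cell, from 278 to 5212, against 786.5 in the other retained cells. The median mitochondrial share was 15.5% in members and 19.6% in the other cells. Levels below are UMIs summed over the named cells and scaled to a common total (CPM), which for a 3'-tagged method are not divided by transcript length, so they are compared between cells and not between genes. A count of 0 in all members allows a level of up to 25.8 CPM (3 counts of the total), and this limit covers counting error only.

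A pair of files shared cells. Of the barcodes deposited for Akita replicate 2 and Wild-type replicate 1, 884 were present in both files and 424 were retained in both, whereas the other pairs of files shared 3 or 4 barcodes. All 27 members of Wild-type replicate 1 were also members of Akita replicate 2, where they formed 27 of the 31 members. The other 4 members of Akita replicate 2 had no entry in the Wild-type replicate 1 file. The 27 shared barcodes had a median of 1.28 times as many UMIs in Akita replicate 2 (range 0.678 to 1.45), and 26 of the 27 had more UMIs there. Each of the 27 correlated best with its own namesake in the other file (median correlation of log counts 0.861). The 102 members therefore represented 75 different barcodes, and these libraries are not independent for these cells. Which animal these cells came from cannot be told apart from the files. Below, the share of members, the named genes of the division by Slc26a4 and the comparison of genotypes are also given with each barcode counted once. The ranking of those genes and the shares with a Slc26a4 UMI use all 102 members.

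**Figure D1:**
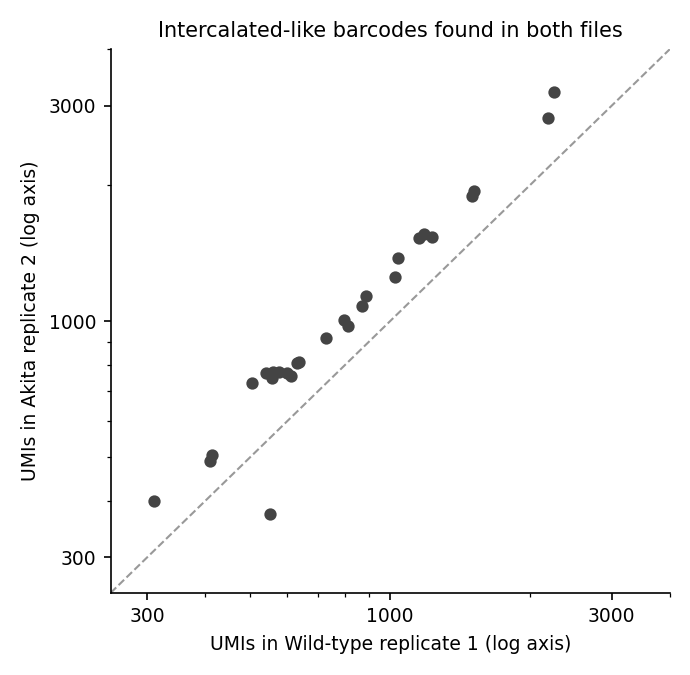
UMIs per cell for the 27 intercalated-like barcodes present in both files, with the Wild-type replicate 1 count on the x axis and the Akita replicate 2 count on the y axis (both log axes, the dashed line marking equal counts). All but 1 of the points lie above the line, close to one common ratio.

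The labelled cell type was checked against marker genes. Car2, which encodes the cytosolic carbonic anhydrase and was not used by the rule, stood at 4403 CPM in members and 340 CPM in the other retained cells and had a UMI in 84 of 102 members. Atp6v1b1, the pump subunit mutated in a human form of distal renal tubular acidosis, stood at 748 CPM against 26.9 CPM. Of 6 principal cell genes, Aqp2, Aqp4, Hsd11b2 and Avpr2 were at 0 in members, while Aqp3 and Fxyd4 had UMIs. The list held 2, 5, 4 and 7 UMIs in members of Akita replicates 1 and 2 and Wild-type replicates 1 and 2. That is 136, 152, 166 and 157 CPM. In the retained cells led by none of the 4 gene sums it stood at 29.8, 35.0, 28.9 and 40.3 CPM, so the list was higher in members. None of 7 lymphocyte and 7 fibroblast or smooth muscle markers had a UMI in a member. Of 7 endothelial, 4 podocyte and 8 macrophage or dendritic markers, 1 each did. In the cells led by no sum the lymphocyte list reached only 23.8 CPM and the fibroblast list 13.4 CPM. Both lie below the 25.8 CPM that a count of 0 allows, so these zeros do not bear on the name. The endothelial list was higher in members of Akita replicate 2 (60.8 against 5.01 CPM, 2 UMIs) and Wild-type replicate 1 (41.6 against 0 CPM, 1 UMI). The name intercalated-like was kept. Transcripts of neighbouring segments were present: 5 of 6 thick ascending limb, 5 of 5 distal convoluted tubule, 4 of 6 connecting tubule and 10 of 10 proximal tubule markers had a UMI in a member.

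Few members lay at the edge of the rule. Members had a median of 11 rule UMIs, from 2 to 63. The 4 members with exactly 2 rule UMIs, all in Wild-type replicate 2, held 247 CPM of Car2 (1 UMI) and 73983 CPM of Kap, an androgen-regulated transcript of the proximal tubule. The 22 cells just outside, with 1 rule UMI and none of the 6 excluded genes, held 283 CPM of Car2 (7 UMIs). Another 5 cells had at least 2 rule UMIs but tied with another sum, and 36 were outranked, 35 of them by S100g plus Klk1. Among the outranked cells, 8 had at least 10 rule UMIs. These 8 were 5 different barcodes, and the highest held 44 rule UMIs against 254 of S100g plus Klk1.

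Members made up 2.25% of retained cells in Akita replicate 1 (7 of 311, exact Clopper-Pearson 95% interval 0.910 to 4.58%) and 5.17% in Akita replicate 2 (31 of 600, 3.54 to 7.25%). The wild-type libraries held 4.79% (replicate 1, 27 of 564, 3.18 to 6.89%) and 8.39% (replicate 2, 37 of 441, 5.98 to 11.4%). The lowest share was in an Akita library and the highest in a wild-type library, and the middle pair were the libraries that share barcodes. The mean was 3.71% ± 2.06 (SD, n = 2) in Akita and 6.59% ± 2.55 (SD, n = 2) in wild type. The difference of -2.88 percentage points was no larger than the spread between libraries (exact two-sided permutation test, p = 0.667, smallest possible 0.333). Wild-type replicate 2 included 6 members, described below, with under 0.5% of their UMIs from rule genes. Leaving only those cells out, its share was 7.13% (31 of 435) and the difference -2.25 points. With the shared barcodes kept in the Akita replicate 2 file only, Wild-type replicate 1 was left with 0 members among 110 cells by construction, since all its members were shared. The difference of -0.49 points in that setting rests on this fixed 0%, and leaving the library out gave -4.68 points. With them kept in the Wild-type replicate 1 file only, the difference was -4.23 points, and the exact permutation p was 0.333. Over the 884 shared barcodes the ratio of UMIs between the files (the Akita file over the wild-type file) had modes at 1.33 and 0.546, and 26 of the 27 shared members lay nearer the high one. Keeping each barcode in one file by its nearer mode left 1 member among 308 cells in Wild-type replicate 1 (0.325%), and the difference of 0.24 points in that setting rests on this emptied library.

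**Figure D2:**
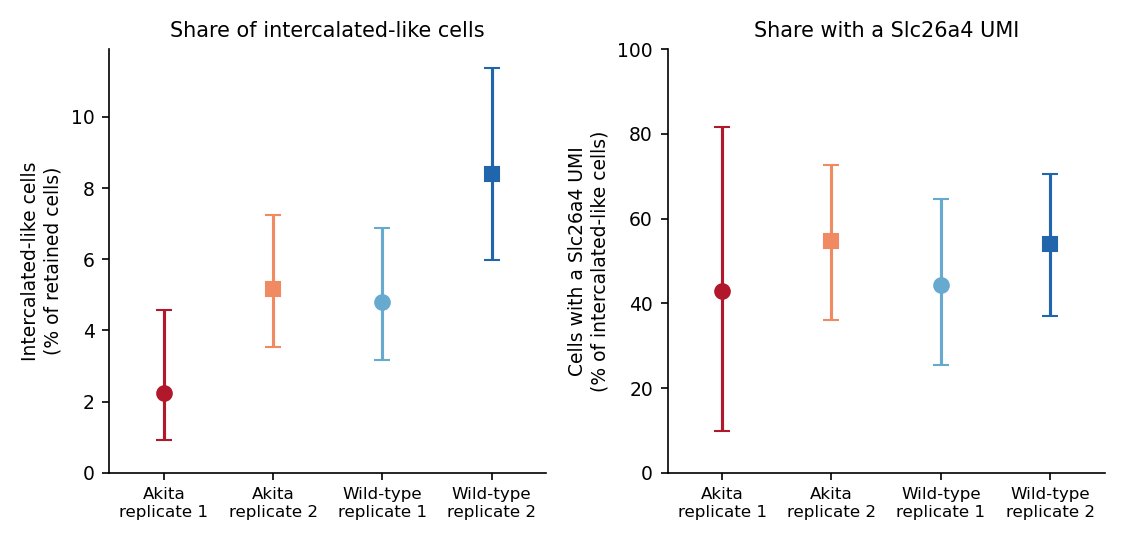
Left, intercalated-like cells as a percentage of retained cells in each library. Right, members with a Slc26a4 UMI as a percentage of members (bars, exact 95% intervals for counting error). Akita replicate 1 at 2.25% and Wild-type replicate 2 at 8.39% lie at the ends of the left panel, and the 4 intervals of the right panel overlap.

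Genes of the proton pump, of bicarbonate, ammonia and anion transport and Foxi1 were among the 25 genes by which members stood furthest apart, 4 of them pump subunits of which the rule had used 2. Because the rule chose the members from the same counts, this contrast is a description and was not tested. Of 947 genes with enough UMIs, the highest ratio of members to other retained cells was that of Rcan2, a regulator of calcineurin, at 507 CPM against 1.47 CPM (344 times). Atp6v1c2 followed at 1453 against 8.84 CPM, then Slc4a9 at 593 against 5.16 CPM, an anion exchanger of the basolateral membrane of type B cells. The other 22 of the 25 leading genes were Atp6v1g3, Syn2, Slc4a1, Aqp6, Gng11, Guca2a, Spink8, Foxi1, Adgrf5, Atp6v0d2, Tmem61, Serpinb9, Hepacam2, Rhbg, Slc26a4, Ociad2, Jag1, Serpinb1a, Atp6v1b1, Foxp1, Rhcg and Ckmt1, with ratios from 18.4 to 109.8.

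The rule genes themselves were spread as follows. Atp6v1g3, the G3 subunit of the V1 stalk (ENSMUSG00000026394, chr1:138273738-138289462, plus strand of GRCm38), had UMIs in all 102 members. Its level was 9839 CPM in Akita replicate 1, 13442 CPM in Akita replicate 2, and 13130 and 7086 CPM in the wild-type libraries 1 and 2. Wild-type replicate 2 was the lowest library, and the groups overlapped. In that library 6 members, described below, had under 0.5% of their UMIs from rule genes. They held 15070 of its 44593 member UMIs, which are part of the total behind its CPM. Atp6v0d2, a V0 subunit (chr4:19876841-19922605, minus strand), was found in 73 members at 1764, 2524, 2825 and 1592 CPM in the same order. Slc26a4 (chr12:31519827-31559969, minus strand) was found in 52 members at 814, 1490, 1828 and 1390 CPM. For each of the 3 genes the 2 groups overlapped.

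In the V1 sector, the tissue-restricted B and C subunits were far higher in members than in other cells, and their widely expressed partners were not. The G pair showed the same direction, but Atp6v1g3 is a rule gene, so its excess was set by the choice of members. In the pair of G subunits, Atp6v1g3 was 109.8 times as high in members as in other retained cells, whereas Atp6v1g1 stood at 172 CPM in members and 237 CPM in the others (20 UMIs in members). In the B pair, Atp6v1b1 was 27.8 times as high, and Atp6v1b2 stood at 51.6 against 122 CPM (6 UMIs). In the C pair, Atp6v1c2 was 164 times as high, and Atp6v1c1 stood at 25.8 against 61.9 CPM (3 UMIs). Other subunit genes of the sector were also higher in members. They were the catalytic subunit Atp6v1a at 5504 against 948 CPM, Atp6v1d at 1109 against 223 CPM, Atp6v1e1 at 1608 against 375 CPM, Atp6v1f at 1118 against 398 CPM and Atp6v1h at 172 against 59.3 CPM. Atp6v1g2 had 2 UMIs in members.

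In the V0 sector, the comparison could be made for fewer genes. In the d pair, Atp6v0d2 stood at 2133 against 31.7 CPM and Atp6v0d1 at 17.2 against 47.2 CPM (2 UMIs). Atp6v0d2 is a rule gene, so its excess was also set by the choice of members. Of the a subunits, Atp6v0a4 stood at 757 against 185 CPM, while Atp6v0a1, Atp6v0a2 and Tcirg1 (a3) had no UMI in any member. Their levels in other cells (14.4, 19.9 and 5.90 CPM) lay below the 25.8 CPM that a count of 0 allows, so a difference was not detectable for these 3 genes. Atp6v0b at 765 against 172 CPM, Atp6v0e at 800 against 238 CPM and the accessory subunits Atp6ap2 at 542 against 81.1 CPM and Atp6ap1 at 206 against 64.9 CPM were higher in members. Atp6v0c, the proteolipid subunit, had only 2 UMIs in members and 1.84 CPM elsewhere, so its level was not measurable here, and Atp6v0e2 had 1.

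**Figure D3:**
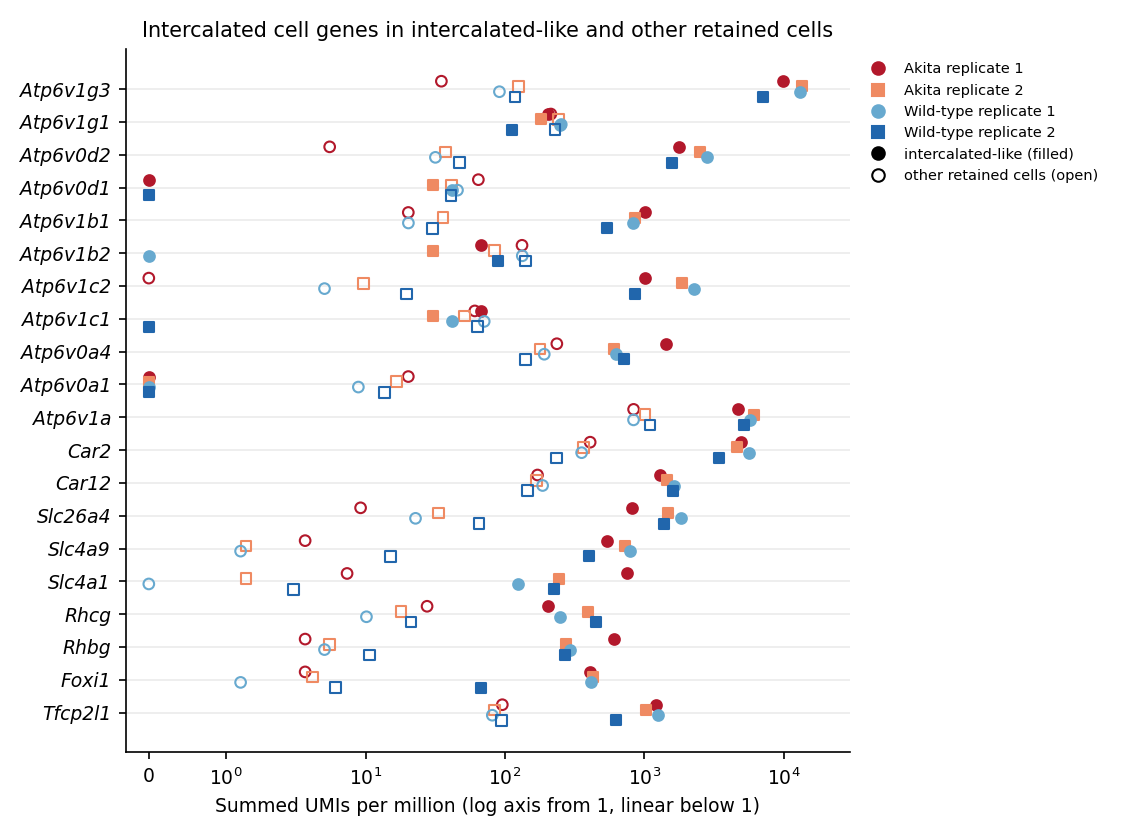
Levels of pump subunits, transporters and transcription factors in intercalated-like cells (filled) and other retained cells (open) of each library, as CPM on an axis that is logarithmic above 1. Filled and open symbols are far apart for the rule genes Atp6v1g3 and Atp6v0d2, as the choice of members sets, and for Atp6v1b1 and Atp6v1c2. They mix or change places for Atp6v1g1, Atp6v0d1, Atp6v1b2 and Atp6v1c1.

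Among the acid-base transporters, carbonic anhydrase Car12 stood at 1531 CPM in members and 169 CPM in the others. The ammonia transporters Rhcg and Rhbg stood at 361 against 18.4 CPM and 318 against 6.26 CPM. Bsnd (barttin) stood at 172 against 21.0 CPM. Genes of the list that were not higher in members were Car4 (146 against 288 CPM), Slc4a2 (8.60 against 15.1 CPM), the proton-potassium pump gene Atp4a (8.60 against 17.0 CPM), the potassium channel Kcnj16 (181 against 718 CPM) and the cotransporter Slc12a2 (8.60 against 31.3 CPM). Slc4a2, Atp4a and Slc12a2 had 1 UMI each in members. Slc26a7, a chloride-bicarbonate exchanger of medullary type A cells, had 1 UMI, and Slc4a8, Slc26a11 and Kcnma1 had none.

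Foxi1, the forkhead factor of intercalated cells (chr11:34204338-34208089, minus strand), stood at 284 CPM in members and 3.68 CPM in the others. It had 6 UMIs in Akita replicate 1, 14 in Akita replicate 2 and 10 and 3 in the wild-type libraries 1 and 2, which is 407, 426, 416 and 67.3 CPM. Wild-type replicate 2 was the low library, and the groups overlapped. Its total includes the 6 members with under 0.5% rule UMIs. With those members left out, the median log2 difference (Akita minus wild type) of the 2 tested transcription factor genes was 0.43. It was 0.62 with them. What these members contribute to the low Foxi1 level was not tested. Tfcp2l1, which acts with Foxi1 in intercalated cells, stood at 946 against 88.1 CPM and had a UMI in 50 members. The homeobox gene Hmx2 had 18 UMIs, spread as 1, 9, 8 and 0 over the libraries in the same order. Dmrt2 (2 UMIs), Gata3 (7), Tfap2b (3), Esrrg (1), Ppargc1a (11), Mecom (1) and Grhl2 (1) were near the limit of detection.

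Promoters of the leading genes were searched for the forkhead letters GTAAACA on both strands, a single motif with no overlap with another, from 250 bases before to 50 after the RefSeq start site. They occurred in 3.65% of 32851 promoter windows of RefSeq genes on GRCm38.p6. Of the 25 leading genes, 18 had at least 1 window, 25 windows in all. The letters lay in 2 of these 25 windows, those of Atp6v1b1 and Guca2a (guanylin, a peptide that acts on epithelial ion transport). The 250 bases before the start site are shown for these genes and for Atp6v1g3, the most widely detected member gene, which held no match. Capitals mark the match, which is a description of letters and not a binding site.
Atp6v1b1, chr6:83742767-83743016, plus strand: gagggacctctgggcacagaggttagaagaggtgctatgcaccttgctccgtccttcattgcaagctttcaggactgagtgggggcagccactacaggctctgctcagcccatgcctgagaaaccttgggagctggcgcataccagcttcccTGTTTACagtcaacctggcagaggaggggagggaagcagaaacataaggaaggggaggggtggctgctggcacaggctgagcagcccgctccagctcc
Guca2a, chr4:119637482-119637731, plus strand: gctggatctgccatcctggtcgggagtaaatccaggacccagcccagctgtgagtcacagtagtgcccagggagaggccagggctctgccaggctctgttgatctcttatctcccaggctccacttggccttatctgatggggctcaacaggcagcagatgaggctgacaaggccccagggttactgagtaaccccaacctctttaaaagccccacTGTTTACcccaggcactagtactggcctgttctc
Atp6v1g3, chr1:138273488-138273737, plus strand: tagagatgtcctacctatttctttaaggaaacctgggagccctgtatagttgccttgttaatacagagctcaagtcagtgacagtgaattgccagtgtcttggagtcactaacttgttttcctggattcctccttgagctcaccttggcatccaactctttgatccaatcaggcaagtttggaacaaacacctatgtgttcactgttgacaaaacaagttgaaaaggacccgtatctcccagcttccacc
The match began 98 bases before the start site of Atp6v1b1 and 34 bases before that of Guca2a.

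Klk1, tissue kallikrein of the connecting tubule and one of the excluded genes, was nevertheless found in 69 of 102 members, where the rule capped it below the rule genes. Its level was 4207 CPM in Akita replicate 1, 2372 in Akita replicate 2, and 2576 and 1659 in the wild-type libraries 1 and 2. In the 1186 remaining cells, which met none of the 4 rules, it was 213 CPM, and in the 394 cells led by S100g plus Klk1 it was 5658 CPM. At a common depth of 300 UMIs, 39.8% of members and 7.51% of the remaining cells would show a Klk1 UMI. The remaining cells held under 2 UMIs of S100g plus Klk1 or had a tie for the highest sum. Their low Klk1 was therefore set in part by the rules, and the contrast with members is a description. Whether the Klk1 UMIs in members are transcript of the members or of connecting tubule cells in the same droplet was not tested.

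Pendrin divided the members. A Slc26a4 UMI was found in 3 of 7 members in Akita replicate 1 (42.9%, exact 95% interval 9.90 to 81.6%) and 17 of 31 in Akita replicate 2 (54.8%, 36.0 to 72.7%). It was found in 12 of 27 members of Wild-type replicate 1 (44.4%, 25.5 to 64.7%) and 20 of 37 of Wild-type replicate 2 (54.1%, 36.9 to 70.5%). The mean was 48.8% ± 8.47 (SD, n = 2) in Akita and 49.2% ± 6.80 (SD, n = 2) in wild type, a difference of -0.40 points (exact two-sided permutation test, p = 1). At 300 UMIs per cell the shares were 16.8%, 29.7%, 28.4% and 33.4%. In these shares no difference between the groups was detectable. The remaining cells stood at 0.548%, which the rules set in advance. Slc26a4 is a rule gene, and those cells held under 2 rule UMIs or had a tie for the highest sum. Members with a Slc26a4 UMI were deeper (median 941 UMIs) than those without (700.5), so that absence of a UMI does not show absence of the transcript. A shared barcode with 400 UMIs in Akita replicate 2 and 310 in Wild-type replicate 1 had a Slc26a4 UMI only in the former. The shares of these libraries come largely from the same barcodes.

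Several genes of type A cells had most of their UMIs in the members without Slc26a4. The water and anion channel gene Aqp6 had 38 UMIs in the 50 members without and 1 in the 52 members with a Slc26a4 UMI. Slc4a1, the type A bicarbonate exchanger, had 30 and 2, and the receptor tyrosine kinase gene Kit had 16 and 0. Adgrf5, an adhesion receptor, had 130 and 7. With each barcode counted once (35 members without, 40 with), Aqp6 had 32 and 1, Slc4a1 27 and 2, Kit 14 and 0 and Adgrf5 104 and 7, which is the same direction. These values are a description, since the members were split by a rule gene.

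Of the 711 genes with at least 25 UMIs in members, those leaning most to the members without Slc26a4, after Aqp6, Adgrf5 and Slc4a1, were Sh3bgrl3 (43 and 4 UMIs), Mme (neprilysin, a peptidase of the cell surface; 47 and 6) and Defb1 (a beta-defensin secreted into urine; 83 and 12). Serpinb9 (34 and 6) and Serpinb1a (23 and 5), both serine protease inhibitors, came next. In Akita replicate 1 a single cell held 15 of the Sh3bgrl3 UMIs, and the highest cells held 19 and 14 of the Defb1 UMIs. Leaning most to the members with Slc26a4 were Igfbp5 (73 UMIs with and 7 without), an insulin-like growth factor binding protein, Myo5a (27 and 4), an organelle motor, Hepacam2 (31 and 5) and Spp1 (osteopontin, 137 and 33). A single cell of Akita replicate 1 held 13 of the Myo5a UMIs, and members of Wild-type replicate 2 held 0. The chaperone gene of the endoplasmic reticulum, Hspa5, had 79 with and 21 without. With each barcode counted once, Igfbp5 had 56 with and 3 without, Myo5a 24 and 2, Hepacam2 24 and 3, and Spp1 95 and 29. Hspa5 then had 59 and 18. Without and with Slc26a4, Sh3bgrl3 had 33 and 3, Mme 38 and 5 and Defb1 71 and 11. Serpinb9 had 25 and 6, and Serpinb1a 17 and 5.

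Genes of the type B list were found in both sets of members. Slc4a9 had 44 UMIs in members with and 25 in members without Slc26a4, and Oxgr1, a 2-oxoglutarate receptor of type B cells, had 7 and 6. Insrr, the insulin receptor-related alkali sensor, had 13 and 2, and Hmx2 had 18 and 0. Jag1, a Notch ligand placed in the type A list, had 22 with and 2 without, which is opposite to its list, and Avpr1a, a vasopressin receptor in the same list, had 12 and 7. Dmrt2, the remaining gene of that list, had 0 and 2. Pump subunits and Foxi1 were found in both sets of members. Atp6v1b1 had 45 and 42 UMIs, Foxi1 17 and 16, and Atp6v1c2 120 and 49. With each barcode counted once, Slc4a9 had 33 with and 17 without, Oxgr1 7 and 5, and Insrr 8 and 1. Hmx2 then had 10 and 0, Jag1 16 and 0, Avpr1a 8 and 5 and Dmrt2 0 and 2. Atp6v1b1 had 34 and 33, Foxi1 12 and 11, and Atp6v1c2 78 and 36. By summed lists, of which the type B list includes Slc26a4 itself, 17 members had UMIs of type A genes only, 32 of type B genes only, 38 of both and 15 of neither. Counted once per barcode these were 12, 24, 27 and 12 of 75.

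**Figure D4:**
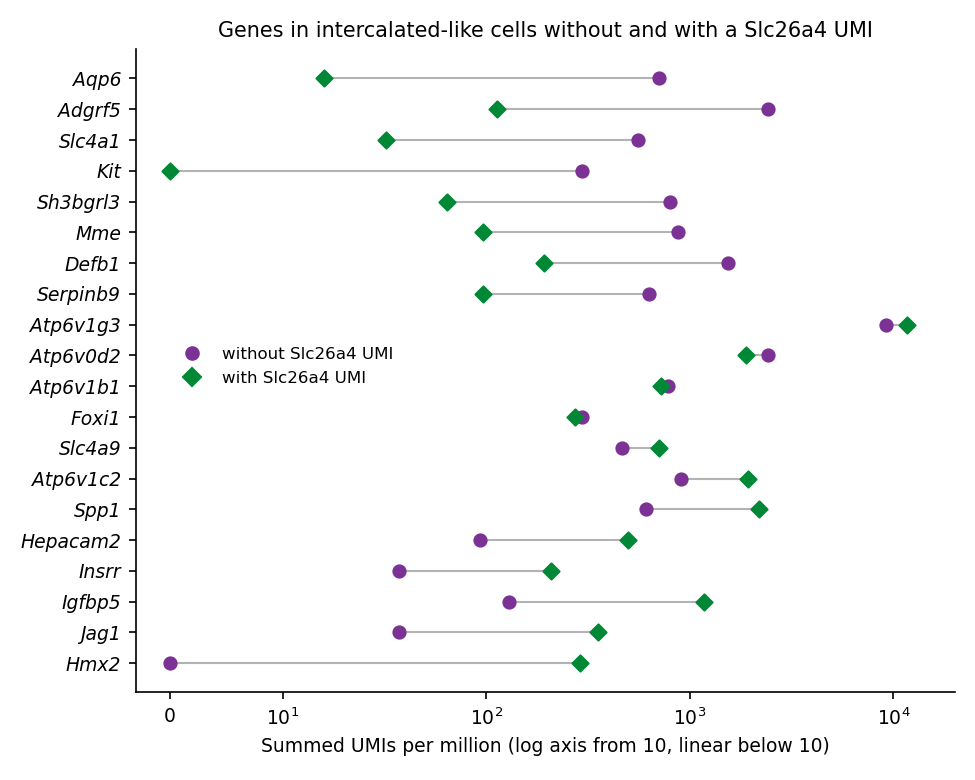
Levels of 20 genes in intercalated-like cells without (circles) and with (diamonds) a Slc26a4 UMI, as CPM summed over the 4 libraries on an axis that is logarithmic above 10. Aqp6, Adgrf5, Slc4a1 and Kit lie far higher in circles, Hmx2, Jag1 and Igfbp5 in diamonds, and Atp6v1b1 and Foxi1 nearly coincide.

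Proximal tubule transcripts were unevenly spread over the members. The 10 proximal tubule markers took a median of 0.727% of a member's UMIs, and the highest member, in Wild-type replicate 2, held 11.1%. The remaining cells of the 4 libraries held 44820.5 to 63821 CPM of these markers, against 8346 CPM in members of Akita replicate 1, 7086 in Akita replicate 2, and 4820 and 30319 in the wild-type libraries 1 and 2. Kap stood at 6582, 5596, 3989 and 22649 CPM in the same order. In Wild-type replicate 2, 6 members had less than 0.5% of their UMIs from the rule genes. Those 6 cells had a median of 2243 UMIs and carried 733 of the 1010 Kap UMIs of that library's members. They held 15070 of its 44593 member UMIs, so they enter every CPM given for its members, those of intercalated genes included. No other library had such a member.

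**Figure D5:**
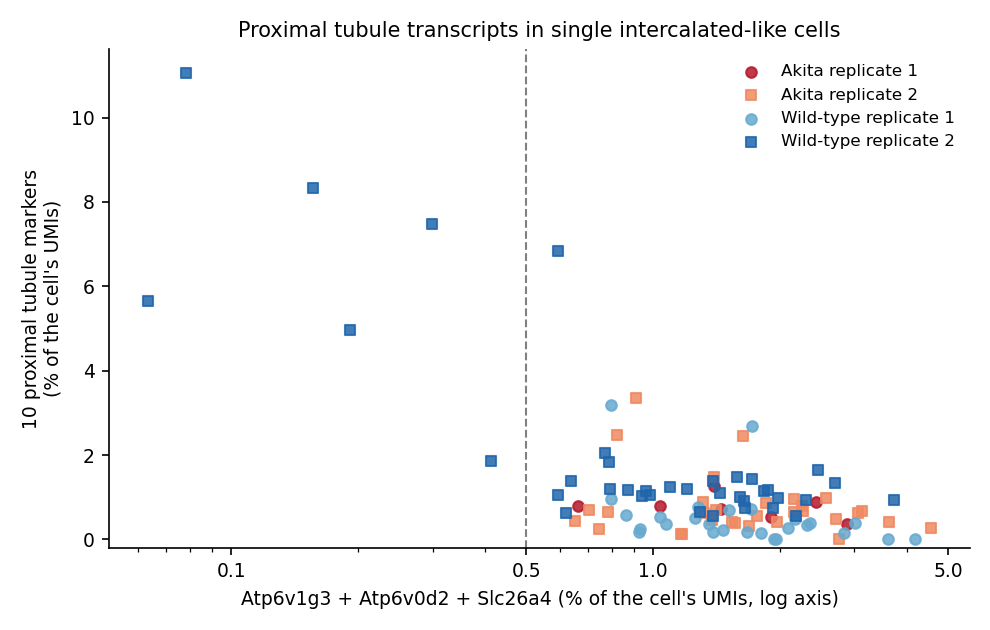
Each intercalated-like cell by the share of its UMIs from the 3 rule genes (x, log axis) and from 10 proximal tubule markers (y). The 6 cells left of the dashed line at 0.5% are all from Wild-type replicate 2 and reach 11.1% on the y axis.

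The comparison of genotypes within members used summed counts per library. Of 417 genes that passed the filter on low counts, 0 (0%) had an adjusted p under 0.05 in edgeR's quasi-likelihood test, and the lowest adjusted p was 0.997. DESeq2 and limma-voom called 0 as well. At a p under 0.05 without adjustment there were 6 genes by edgeR, 1 by DESeq2 and 1 by limma-voom. Both Akita libraries lay above both wild-type libraries for 46 genes (11%) and below them for 35 (8.39%). P-values measure the spread between 2 libraries per group, of which one from each group shared cells. The labels do not say whether the libraries of a group came from separate mice.

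The 5 genes with the smallest p in each direction are named by rule, and none passed. Sh3bgrl3 stood at 1357 CPM in Akita replicate 1, 335 in Akita replicate 2, and 457 and 112 in the wild-type libraries 1 and 2 (log2 difference, Akita minus wild type, 1.56 ± 0.68 SE, edgeR adjusted p = 0.997). The groups overlapped, and a single cell held 15 of the 20 UMIs in Akita replicate 1. Defb1 stood at 2579, 547, 540 and 583 CPM in the same order (1.31 ± 0.58 SE, edgeR adjusted p = 0.997). Here 2 cells held 19 and 14 of the 38 UMIs in Akita replicate 1, and without that library the log2 difference was -0.12. Mme stood at 1221, 426, 416 and 247 CPM, a log2 difference of 1.20 with groups that did not overlap. The inner pair, 426 and 416 CPM (14 and 10 UMIs), were the libraries that share barcodes, so this separation rests largely on the same cells. Besides these 3 genes, the mitochondrial gene mt-Nd3 (0.79) and the predicted gene Gm10039 (0.91) were named as higher. The first 3 genes are also those that leaned to members without Slc26a4.

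The 5 genes named as lower were Kap (-1.30), Gpx1, a glutathione peroxidase (-1.55), Acsm2, a medium-chain acyl-CoA synthetase (-1.78), Miox, the inositol oxygenase of the proximal tubule (-1.60) and Dnaja1, a co-chaperone (-1.14). In each of them Wild-type replicate 2 was the highest library, at 2601 CPM for Gpx1 and 2198 CPM for Acsm2, and the groups overlapped. Without Wild-type replicate 2 the log2 differences were 0.73 for Kap, 0.06 for Gpx1 and 1.40 for Acsm2. Miox and Dnaja1 did not pass the filter on low counts in that setting.

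With each shared barcode kept in the Akita replicate 2 file only, which leaves Wild-type replicate 2 as the only wild-type library with members, 720 genes were tested and 30 passed in edgeR. That lone library is assumed to vary like the Akita pair. Of these genes, 28 (3.89%) were lower and 2 (0.278%) higher. Kap had a log2 difference of -2.08 (edgeR adjusted p = 1.51e-21), and Lrp2 (megalin, -2.53), Slc22a6 (an organic anion transporter, -3.60) and Fbp1 (-2.48) of the proximal tubule markers were also among them. Of the 10 proximal tubule markers, 9 were tested there, 6 passed as lower, and their median was -2.48 against 0.01 over all genes tested. The higher genes were Myo5a, with 13 of its 17 UMIs in Akita replicate 1 in a single cell, and Sh3bgrl3. With the 6 members under 0.5% of rule UMIs left out as well, 616 genes were tested, 0 (0%) were lower and 1 (0.162%), Myo5a, was higher in edgeR. Fewer genes were tested there, and 5 of the proximal tubule markers were among them, with a median of -0.93.

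Leaving Wild-type replicate 1 out gave the same comparison of members and the same 30 calls. In the other settings with any call, the calls were fewer and all lower in Akita (edgeR). There were 3 (0.0303%) without a filter on low counts (Cyp2e1 and Cyp4b1 among them), 6 (2.11%) with shared barcodes left out of both files, 1 (0.315%, Ndrg1) with each barcode in the file of its nearer mode, 5 (0.747%) without Akita replicate 1 and 3 (0.719%) with cells marked as doublets left out. Kap, Gpx1 and Acsm2 were those last 3 (log2 differences -1.45, -1.64 and -2.04), and none passed when the doublet caller was started from any of 4 other random seeds. With shared barcodes left out, Wild-type replicate 2 alone (37 members) stood against 7 and 4 Akita members, and its spread is again assumed to be that of the Akita pair. With the nearer mode, Wild-type replicate 1 had 1 member.

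The lists of intercalated genes held no call in members. In the V1 sector, 12 of 13 genes had a UMI in members, 7 were tested and 0 passed. Without the rule gene Atp6v1g3, the median log2 difference of the other 6 was -0.01 (0.01 with it), against -0.02 over all genes tested. The groups did not overlap for 1 of the 7, against 19.4% of all genes tested. It was Atp6v1b1 (1018 and 852 CPM in Akita libraries 1 and 2 against 831 and 538 CPM, log2 difference 0.43 ± 0.41 SE). The values nearest each other, 852 and 831 CPM, were of the libraries that share barcodes, so this separation rests largely on the same cells. In the V0 sector and accessory genes, 9 of 12 had a UMI and 5 were tested. Without the rule gene Atp6v0d2 the median of the other 4 was 0.35, from 0.12 to 0.55 (0.26 with it). With the 6 members under 0.5% rule UMIs left out, the median of the 5 tested V0 and accessory genes was 0.12. That of the 7 tested V1 genes was then -0.12, against 0.01 over all genes tested. Of 21 acid-base and ion transport genes, 15 had a UMI and 6 were tested. Without the rule gene Slc26a4 the median of the other 5 was 0.09, and with it -0.09. The groups did not overlap for 1 of the 6, Car12, beside the same 19.4% of all genes. Car12 was lower in both Akita libraries (1289 and 1460 CPM) than in both wild-type libraries (1620 and 1615 CPM), with a log2 difference of -0.28 ± 0.34 SE. The values of 1460 and 1620 CPM were of the libraries that share barcodes, so part of this separation lies between counts of the same cells. All 10 transcription factor genes had a UMI and only Foxi1 (0.97 ± 0.87 SE) and Tfcp2l1 (0.28 ± 0.40 SE) were tested.

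Other programmes were also without a call. Of 32 nuclear genes of oxidative phosphorylation, 29 were tested, with a median of -0.03. Between members and other cells, 27 of the 32 had a higher CPM in members and 5 a lower one, with a median ratio of 1.22. No share over all genes stands beside this count or that of the mitochondrially encoded genes below, so neither is read as a trait of members. The CPM total includes mitochondrial UMIs, whose median share was 15.5% in members and 19.6% in the other cells. Cox6c, a cytochrome oxidase subunit, stood at 4369 CPM in members against 2699 CPM in the other cells, and Cox4i1, of the same complex, at 3285 against 3041 CPM. Of 13 mitochondrially encoded genes, 9 had a UMI in members, of which 8 had a lower CPM there and 1 (mt-Co3, with 1 UMI) a higher one, with a median ratio of 0.733. Cytochrome b (mt-Cytb) stood at 14001 CPM in members against 21144 CPM. The 8 genes of this list that were tested had a median of -0.02 between genotypes. Of 16 glycolysis genes, 6 were tested, with a median of 0.03. Ldhb, the heart-type lactate dehydrogenase, stood at 3406 CPM in members and 1433 CPM in the others, whereas Gapdh stood at 1445 and 1570 CPM. Of 13 heat shock and chaperone genes, 8 were tested, with a median of -0.13. Of 14 immediate early genes, which respond to dissociation, only Jun was tested, at 0, 395, 416 and 44.9 CPM in Akita replicates 1 and 2 and Wild-type replicates 1 and 2. The high pair were the libraries that share barcodes. Of 8 urinary defence genes, only Defb1 was tested.

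Sums over all retained cells did not use the member rule. In such sums fewer cells of a type and less RNA per cell cannot be told apart. Slc26a4 stood at 30.5 CPM in Akita replicate 1, 96.6 in Akita replicate 2, and 76.3 and 149 in the wild-type libraries 1 and 2. Akita replicate 1 was the lowest library and Wild-type replicate 2 the highest, as for the share of members, which Slc26a4 as a rule gene helps to set. The log2 difference of Slc26a4 was -0.74 ± 0.40 SE (edgeR adjusted p = 0.9999). For Atp6v0d2 it was -0.34 ± 0.34 SE and for Atp6v1g3 -0.03 ± 0.30 SE. Those genes were also lowest in Akita replicate 1 but highest in Akita replicate 2. Atp6v0d2 stood there at 146 CPM (145 in Wild-type replicate 2) and Atp6v1g3 at 704 CPM (560 in Wild-type replicate 2). Of 7169 genes tested, 0 (0%) passed in edgeR, with 68 at a p under 0.05 before adjustment. Neither DESeq2 nor limma-voom made a call (7 and 57 before adjustment). Without Akita replicate 2, 8112 genes were tested and 23 passed, 18 (0.222%) as lower and 5 (0.0616%) as higher, and Slc26a4 (-1.93, edgeR adjusted p = 0.00197) and Atp6v0d2 (-1.38, edgeR adjusted p = 0.0359) were among the lower genes. That comparison sets Akita replicate 1 alone against the wild-type pair. The other calls in such sums were 1 lower gene (0.00495%, Ces1g) without a filter on low counts, the same gene (0.0126%) without Akita replicate 1, and 4 lower (0.0494%) and 10 higher genes (0.123%) without Wild-type replicate 1.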

How the data were processed

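Drop-seq tags each mRNA with a 12-base cell barcode and an 8-base UMI. The authors deposited UMI counts, not normalized, for 1998 or 2000 strings per library. STAR 2.5.2b, featureCounts 1.6.0, UMI-tools 0.5.3 and the build GRCm38 are listed, per the submitters' processing notes. Strings with an undetermined base or 1 base at least 11 times (4 per file, 1.19% of UMIs) were left out, and barcodes with at least 200 genes and at most 50% mitochondrial UMIs were retained. Symbols and 1-based coordinates come from GENCODE vM21 on GRCm38, and 32 of 22078 identifiers had no symbol. Promoters come from RefSeq (GRCm38.p6).

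Cells were not replicates. Counts were summed per library over members or over all retained cells. The 2 Akita and 2 wild-type sums were compared by edgeR 4.0.16 (R 4.3.3) with TMM scaling, filterByExpr and the two-sided quasi-likelihood test, with Benjamini-Hochberg adjustment over all genes tested and a threshold of 0.05. The script was tested on simulated counts. Shares were compared by an exact permutation test. Binomial intervals are exact (95%) and cover counting error only. Thinned shares are the expected share of cells with a UMI at 300 UMIs (1 shallower member left out). Scrublet, in scanpy 1.11.5, marked 7 retained cells, 2 of them members, which were kept. Alternatives were DESeq2 1.42.0, limma 3.58.1 (voom), other filters and member rules, other treatments of shared barcodes, a replicate block and each library left out. The 0.5% minimum of rule UMIs, the crossed block and 4 further Scrublet seeds were chosen after seeing the data.

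The members and all gene lists were chosen with earlier results of these data known. Genes named between genotypes are up to 10 per direction that passed, had a mean of at least 200 CPM and did not overlap between groups, or otherwise the 5 of smallest p. Genes named between cells are the 25 highest ratios among genes with at least 20 UMIs in members, found in at least 3 libraries. Genes of the pump, transport, factor and type lists were named where the files list them, and some are not reported here. Genes outside these rules, such as Igfbp5, Spp1 and Klk1, were chosen after their values were seen. Replicate numbers were not used as pairs in the main comparison.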

Additional observations from a re-analysis of the deposited data

Results flagged for a closer look

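A signal of the rule genes also lay in barcodes that were not retained and that no comparison used. These barcodes held 195 Atp6v1g3 UMIs (35, 79, 29 and 52 in Akita replicates 1 and 2 and Wild-type replicates 1 and 2), or 111 CPM, against 1219 UMIs in members and 259 in the other retained cells. The member rule was met by 26 of the barcodes that were not retained, of which 25 had fewer than 200 genes. No control libraries exist for this signal, and it exceeded the limit of 3 counts.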

How the results depend on the processing

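The lower share of members in Akita kept its sign except with each shared barcode in the file of the nearer UMI ratio (0.24 points) and with members of at least 0.5% rule UMIs and shared barcodes in Akita replicate 2 only (0.146 points), both of which left Wild-type replicate 1 with 1 or 0 members. With each library left out it ranged from -4.68 to -1.08 points. The difference in Slc26a4 share (-0.40 points) turned to 2.39 points with a minimum of 1 rule UMI, 1.21 with barcodes of the same first 11 bases counted once and 22.7 with the nearer UMI ratio, where Wild-type replicate 1 had a single member. It was -18.1 points with at least 500 genes per cell, -7.63 with shared barcodes left out and -7.59 at 300 UMIs, and ranged from -6.39 to 5.59 points with each library left out (4.40 without Wild-type replicate 2). Calls in member sums (0 as reported) were 3 without a filter on low counts, 6 with shared barcodes left out, 30 with them in Akita replicate 2 only, 1 with the nearer UMI ratio, 1 with at least 0.5% rule UMIs and Akita replicate 2 only, and 0 to 30 with each library left out. Cells marked by Scrublet moved with its random seed: 4 to 7 retained cells and 1 or 2 members were marked, and leaving them out gave 3 calls (Kap, Gpx1 and Acsm2, all lower) with the first seed and 0 with each of the other 4. In sums over all retained cells (0 as reported) there was 1 call without a filter and 0 to 23 with each library left out, namely 1 (Akita replicate 1), 23 (Akita replicate 2), 14 (Wild-type replicate 1) and 0 (Wild-type replicate 2). The cause of these changes was not tested. Miox and Dnaja1 did not pass the filter on low counts without Wild-type replicate 2, so neither has a value there. With each library left out, named genes that turned ranged from -0.12 to 2.14 for Defb1 (-0.12 without Akita replicate 1), -2.19 to 0.057 for Gpx1, -2.59 to 1.40 for Acsm2 and -2.08 to 0.73 for Kap, the last 3 being positive without Wild-type replicate 2. Of 252 values of named genes under alternatives, 232 kept their sign and side of the threshold, 16 passed it and these 4 turned.

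The replicate block gave 0 calls in member sums and 0 in sums over all retained cells. Gene by gene, the difference of replicate 1 from replicate 2 in Akita was correlated with that in wild type. The correlation was -0.343 in member sums and -0.246 in sums over all retained cells. The libraries that share cells enter these differences with opposite signs. The values therefore cannot show whether replicate numbers pair the libraries. Crossing the numbers (Akita replicate 2 with Wild-type replicate 1) also gave 0 and 0 calls. With 7 members in Akita replicate 1, depth limits what can be seen in that library to levels above 204 CPM (3 counts).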
